A study of Mus musculus with 12 samples.

Results

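The BCL2 family decides whether a cell opens the outer membrane of its mitochondria, and 10 of its genes were followed by RNA sequencing in osteoclast precursors. They are the survival genes Mcl1, Bcl2l1 (BCL-XL) and Bcl2, the pore-forming effectors Bax and Bak1, and the BH3-only genes Bcl2l11 (BIM), Bid, Pmaip1 (NOXA), Bad and Bbc3 (PUMA). The genes were taken as a named list, which was chosen with earlier results of these data known. All 10 were among the 11670 genes that passed a filter on low counts, of 21899 genes measured. The cells, called BMDMs, were grown from the bone marrow of C57BL/6 mice and are cultured precursors of macrophages and osteoclasts. All groups received M-CSF at 50 ng/ml, the survival factor of these cells, and RANKL at 100 ng/ml, the cytokine that commits them to osteoclasts. There were 4 groups of 3 libraries. MR+JQ1 cells also received JQ1, which displaces the BET proteins from acetylated chromatin. MR+dBRD9 cells received dBRD9, which has the chromatin remodeling subunit BRD9 degraded. MR+DEX+iBRD9 cells received both DEX (dexamethasone, a glucocorticoid) and iBRD9, which blocks the bromodomain of BRD9, and MR cells are labelled with the cytokines only. The protocol speaks of a vehicle without saying which cultures received it. No group received DEX or iBRD9 alone, and the labels do not give the times and concentrations of the compounds, which the study's methods give in part and which are not repeated here, nor whether the 3 libraries of a group were separate cultures, so the p-values measure the spread between these libraries, which may be technical.

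The proteins work as a chain of binding partners. BH3-only proteins are made or activated under stress or when growth factors are withdrawn. The survival proteins hold them, and BAX and BAK, in check, and when free BH3-only proteins outnumber the survival proteins, BAX and BAK form pores that release cytochrome c and start the caspases. MCL1 and NOXA are short-lived proteins, so their amounts follow their transcripts and their degradation closely. In osteoclasts, BIM is known to shorten life span, and loss of M-CSF is known to raise it. Only RNA was measured here.

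The promoters of Bcl2l11, Bid and Mcl1 are shown, because these members had the smallest adjusted p-values with JQ1, the first 2 higher and the last lower in the same libraries. Each line is the 250 bases before the start of transcription, 5′ to 3′ on the gene's own strand, from RefSeq on GRCm38.p6. Capitals mark matches to any of 7 short motifs that were searched on both strands. Bcl2l11 lies at chr2:128125788-128126037 on the plus strand, Bid at chr6:120916825-120917074 on the minus strand and Mcl1 at chr3:95658471-95658720 on the plus strand.
Bcl2l11: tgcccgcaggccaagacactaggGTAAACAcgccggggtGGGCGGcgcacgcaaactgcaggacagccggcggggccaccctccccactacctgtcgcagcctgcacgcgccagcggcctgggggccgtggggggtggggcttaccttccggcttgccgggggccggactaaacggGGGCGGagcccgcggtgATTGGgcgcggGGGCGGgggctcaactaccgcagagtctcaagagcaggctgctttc
Bid: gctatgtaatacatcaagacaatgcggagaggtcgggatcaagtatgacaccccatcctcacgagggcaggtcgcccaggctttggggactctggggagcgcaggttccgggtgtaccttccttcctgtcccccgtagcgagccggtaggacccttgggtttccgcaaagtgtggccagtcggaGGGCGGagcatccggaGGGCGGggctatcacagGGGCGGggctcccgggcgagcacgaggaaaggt
Mcl1: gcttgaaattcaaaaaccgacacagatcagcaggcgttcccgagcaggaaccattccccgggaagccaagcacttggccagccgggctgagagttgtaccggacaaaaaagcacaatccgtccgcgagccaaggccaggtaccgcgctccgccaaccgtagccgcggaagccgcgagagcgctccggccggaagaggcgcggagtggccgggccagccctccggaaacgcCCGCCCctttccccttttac
RefSeq lists 2 start sites for Bcl2l11, and the first is shown; the window of the second, at chr2:128127325-128127574, held 2 CCAAT boxes and 2 GC boxes and no forkhead motif. The Bcl2l11 window shown held a forkhead motif, GTAAACA, at bases 227 to 221 before the start, along with 3 GC boxes (GGGCGG) and 1 CCAAT box that reads ATTGG on this strand. The Bid window held 3 GC boxes between bases 66 and 28 before the start, and the Mcl1 window held 1 GC box, read as CCGCCC, at bases 20 to 15. Over all 32851 RefSeq start sites with a window of this length, 32.7% held a GC box, 33.8% a CCAAT box and 3.17% the forkhead motif. Windows of 9 of the members were searched, 15 windows in all. Of these, 10 held a GC box, 4 a CCAAT box, 2 the forkhead motif (Bcl2l11 and Bbc3) and 2 the E-box CACGTG (Bax and Bbc3). The E-box was found in 6.02% of all windows. The cyclic AMP response element TGACGTCA, the interferon gamma activated site TTCNNNGAA and the TATA box TATAAA were in 0 of the 15 windows, against 1.55%, 7.02% and 12.4% of all windows. A match is only a run of letters, and a window without one says nothing about the factor. The windows overlap for 2 of the 3 start sites of Bbc3.

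The libraries held 14875951 to 18067758 counts each, and the members held 200 to 17579 counts per library. Macrophage genes were abundant in all libraries: Csf1r, the M-CSF receptor, averaged 2268 CPM, counts scaled to the size of the library, in MR+JQ1 cells and 1517 CPM in MR cells. Cd68 went the other way, at 1026 CPM in MR+JQ1 and 1250 CPM in MR cells. Of 17 tested markers of monocytes, macrophages and osteoclasts, 4 were called higher and 13 lower with JQ1, where 30% and 31.6% of all genes were. Among markers of mature osteoclasts, Ctsk averaged 1.60 CPM in MR+JQ1 and 8.11 CPM in MR cells, Mmp9 averaged 19.4 CPM in MR+JQ1 and 115 CPM in MR cells, and Ocstamp was under 2 CPM in every group. Brd2, which rises when BET proteins are inhibited, was higher by 2.23 on the log2 scale in MR+JQ1 than in MR cells, while Brd9 transcripts were not called against MR in any group. Liver transcripts divided the libraries across the groups. The 3 MR+JQ1 libraries, the 3 MR+dBRD9 libraries and MR library 3 held 738 to 1031 albumin (Alb) counts, and the 3 MR+DEX+iBRD9 libraries and MR libraries 1 and 2 held 0 to 2. This division lies within MR, is the same for MR+JQ1 and MR+dBRD9, and cannot be told apart from the treatment between MR+DEX+iBRD9 and MR+dBRD9.

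Mcl1 was by far the most abundant member. Levels are compared between genes as FPKM, counts per kilobase of gene scaled to the total of the library, and the plot of FPKM by gene shows every library. Mcl1 had 211, 199 and 207 FPKM in MR+JQ1 libraries, 253, 278 and 282 FPKM in MR+dBRD9 libraries, 255, 268 and 256 FPKM in MR+DEX+iBRD9 libraries, and 280.2, 285 and 288 FPKM in MR libraries. With a mean of 284 ± 4.06 FPKM (SD, n = 3) in MR cells it ranked 115 among the 11670 tested genes, and it stood apart from the next member in every group.

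**Figure D1:**
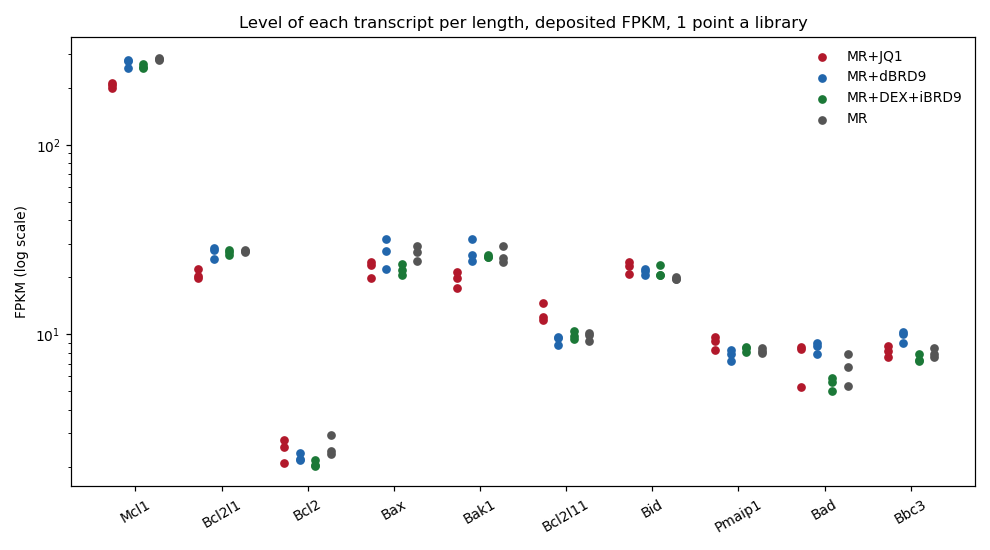
FPKM on a log axis (vertical) for each of the 10 genes (horizontal), 1 point per library, with MR+JQ1, MR+dBRD9, MR+DEX+iBRD9 and MR from left to right within a gene. Mcl1 lies at 199 to 288 FPKM in the 12 libraries, Bcl2 at 2.02 to 2.95 FPKM, and the other 8 genes between them.

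Below Mcl1, a second tier held Bcl2l1, Bax and Bak1. In MR cells they averaged 27.6 ± 0.34, 26.9 ± 2.46 and 26.3 ± 2.66 FPKM (SD, n = 3), and their libraries overlapped, so no order among them could be read. Bid followed at 19.7 ± 0.29 FPKM, apart from Bak1 above it and from Bcl2l11 below it at 9.75 ± 0.44 FPKM. Pmaip1, Bbc3 and Bad averaged 8.19 ± 0.29, 7.98 ± 0.45 and 6.64 ± 1.28 FPKM, and neighbours in this order overlapped. Bcl2 was the lowest at 2.56 ± 0.34 FPKM, apart from Bad, although its transcript collected more counts than Bad, because the gene length behind its FPKM is 9157 bases against 2558 bases for Bad. In MR+JQ1 cells Bid averaged 22.6 ± 1.73 FPKM, Bax 22.3 ± 2.27, Bcl2l1 20.7 ± 1.26 and Bak1 19.5 ± 1.92 (SD, n = 3). Neighbours overlapped throughout, so Bid no longer stood apart from the second tier and no order among these genes could be read. In MR+dBRD9 cells Bcl2l11 at 9.35 ± 0.52 FPKM overlapped both Bbc3 at 9.77 ± 0.70 and Bad at 8.52 ± 0.59.

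JQ1 against MR asks how BET inhibition acts on these transcripts, and 3 BH3-only genes were higher while 2 survival genes and 1 effector were lower. Bcl2l11, Bid and Pmaip1 rose, Mcl1, Bcl2l1 and Bak1 fell, and Bcl2, Bax, Bad and Bbc3 did not pass the test. These 6 of 10 called genes stand beside 61.6% called among all genes tested, with 30% higher and 31.6% lower, so the number is at the level of the transcriptome. In 7 of the 10 the libraries of MR+JQ1 and MR did not overlap, against 63.4% of all genes. The median log2 change of the members was 0.17, against -0.01 over all genes, and the median absolute change was 0.26, against 0.39. Genes were called at an adjusted p under 0.05 (edgeR quasi-likelihood test, Benjamini-Hochberg over 11670 genes), and CPM are scaled by TMM, which sets the libraries to a common level over most genes.

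**Figure D2:**
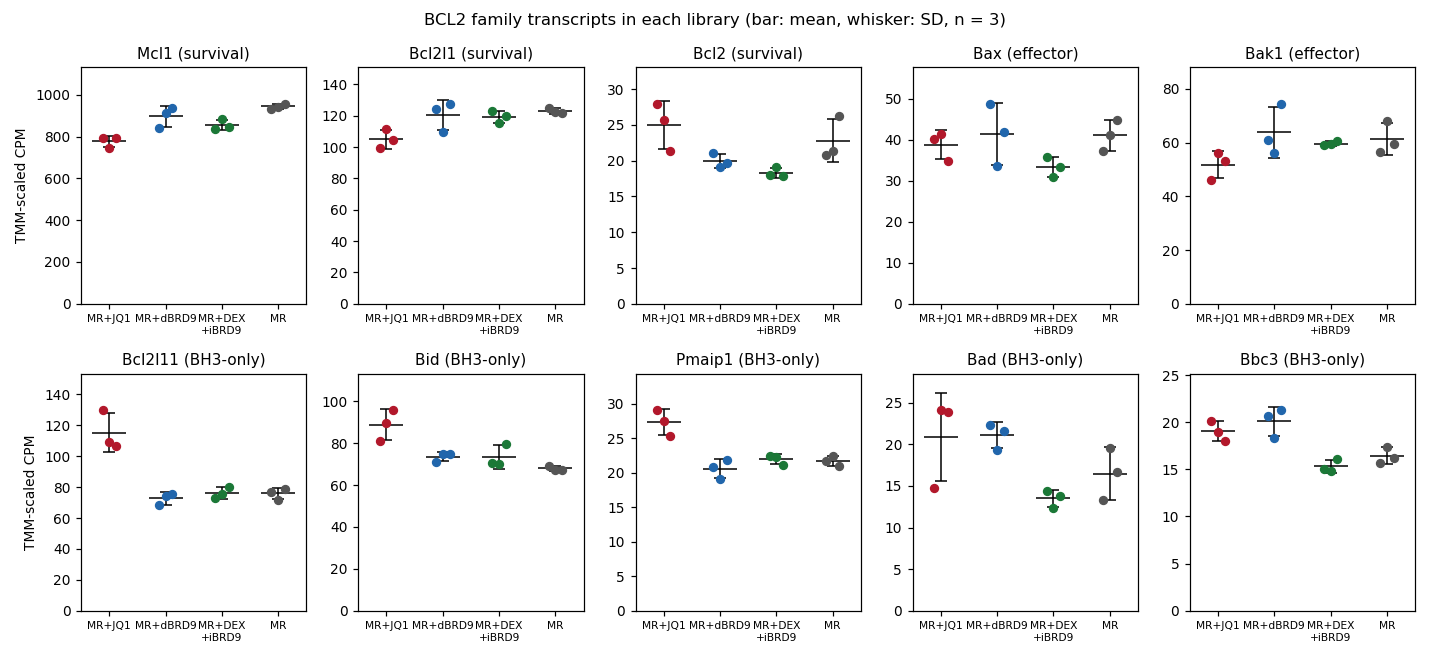
TMM-scaled CPM (vertical, from 0) of each member in each library, with MR+JQ1, MR+dBRD9, MR+DEX+iBRD9 and MR from left to right; bars are means and whiskers SD over 3 libraries. The 3 MR+JQ1 libraries of Bcl2l11 lie at 107 to 129.7 CPM, above all other libraries at 68.2 to 80.3 CPM, and those of Mcl1 at 745 to 793 CPM, below the others at 838 to 958 CPM.

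Bcl2l11, which encodes BIM, a BH3-only protein that binds all survival members, had the largest change. It had 129.7, 109 and 107 CPM in MR+JQ1 libraries, against 77.2, 72.0 and 78.9 CPM in MR libraries. The MR+JQ1 libraries were all higher, with library 1 the highest. The log2 fold change was 0.60 ± 0.074 (SE), a 1.51-fold rise (edgeR adjusted p = 5.1e-08). The gene lies at 127967958 to 128004476 on the plus strand of chromosome 2 (GRCm39).

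Bid encodes a BH3-only protein that caspase-8 cuts and so ties death receptors to mitochondria. It had 80.9, 89.9 and 95.7 CPM in MR+JQ1 libraries, against 69.3, 67.3 and 67.5 CPM in MR libraries, without overlap. The rise was 0.39 ± 0.072 on the log2 scale (edgeR adjusted p = 3.6e-05). Bid overlaps Bcl2l13 on the opposite strand of chromosome 6, at 120862525 to 120894171 for Bid, and whether reads were counted by strand is not given in the sources used here, so reads of the overlap could count for either gene. Bcl2l13 moved the other way, with 44.8 CPM in MR+JQ1 and 57.2 CPM in MR cells (log2 fold change -0.35 ± 0.077, edgeR adjusted p = 2.7e-04).

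Pmaip1 encodes NOXA, a BH3-only protein that binds MCL1 above all and sends it to the proteasome. It had 29.0, 27.5 and 25.3 CPM in MR+JQ1 libraries, against 21.7, 22.5 and 21.0 CPM in MR libraries. All MR+JQ1 libraries were higher, and the rise was 0.33 ± 0.10 on the log2 scale (edgeR adjusted p = 0.0058). This call depended on the scaling: with libraries scaled by total counts only, which shifts the median of all genes to -0.20, the log2 fold change was 0.14 (edgeR adjusted p = 0.23).

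Mcl1, whose protein binds BIM, NOXA and BAK, had 793, 745 and 792 CPM in MR+JQ1 libraries, against 932, 942 and 958 CPM in MR libraries. The groups did not overlap, and the log2 fold change was -0.28 ± 0.051, or 82.3% of MR (edgeR adjusted p = 2.5e-05). Because Mcl1 is so abundant, this was the largest change in level of any member, a mean of 206 FPKM in MR+JQ1 cells and 284 FPKM in MR cells, where FPKM carry no TMM scaling. Mcl1 lies at 95566026 to 95570487 on the plus strand of chromosome 3 (GRCm39) and overlaps no other annotated gene.

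Bcl2l1, the gene of BCL-XL, fell too. It had 99.5, 112 and 104 CPM in MR+JQ1 libraries, against 125, 122 and 122 CPM in MR libraries, all lower, with a log2 fold change of -0.23 ± 0.065 (edgeR adjusted p = 0.0037). Bak1, an effector that sits in the outer membrane and is held there by MCL1 and BCL-XL, had 46.2, 56.3 and 53.1 CPM in MR+JQ1 libraries, against 56.6, 68.2 and 59.3 CPM in MR libraries. The lowest MR library lay just above the highest MR+JQ1 library, and the log2 fold change was -0.24 ± 0.094 (edgeR adjusted p = 0.027). The Bak1 call was lost without MR+JQ1 library 1 (-0.17, edgeR adjusted p = 0.13) or without MR library 2 (-0.16, edgeR adjusted p = 0.19). A fold of at least 1.2 was not reached by either gene. With a term for the albumin division, which leaves MR library 3 alone as the control, both were no longer called, at -0.21 for Bcl2l1 and -0.19 for Bak1 (edgeR adjusted p = 0.069 and 0.26). Bcl2l11, Bid, Pmaip1 and Mcl1 were called with that term, and leaving out MR library 3 changed no member's call.

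The 4 other members were not called, and the call of Bad depended on the libraries and the filter. Bcl2, the founding survival gene, had 27.99, 25.6 and 21.4 CPM in MR+JQ1 libraries, against 20.8, 21.3 and 26.2 CPM in MR libraries, with overlap (log2 fold change 0.14 ± 0.11, 95% interval -0.10 to 0.37). Bax, a cytosolic effector that moves to mitochondria, had 40.3, 41.5 and 34.8 CPM in MR+JQ1 libraries, against 37.3, 41.2 and 44.8 CPM in MR libraries, a log2 fold change of -0.08 ± 0.11 (95% interval -0.30 to 0.14), and was called lower when scaled by total counts only (-0.26, edgeR adjusted p = 0.037). Bbc3, a BH3-only target of p53, was higher in each MR+JQ1 library, with 20.2, 19.0 and 18.02 CPM against 15.7, 17.4 and 16.3 CPM in MR libraries, but missed the threshold (0.21 ± 0.11, edgeR adjusted p = 0.10). Bad, a BH3-only protein silenced by growth factor kinases, was split within the group. It had 14.8, 24.1 and 23.9 CPM in MR+JQ1 libraries, against 13.3, 19.6 and 16.6 CPM in MR libraries (0.34 ± 0.15, edgeR adjusted p = 0.057). Bad was called without MR+JQ1 library 1 (0.54, edgeR adjusted p = 7.4e-04) or without MR library 2 (0.49, edgeR adjusted p = 0.014), and with all libraries and no filter on low counts (0.35, edgeR adjusted p = 0.013). It overlaps Gpr137 on the opposite strand, which averaged 16.3 CPM in MR+JQ1 and 11.6 CPM in MR cells (0.50 ± 0.15, edgeR adjusted p = 0.0050), so reads of the overlap cannot be assigned.

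**Figure D3:**
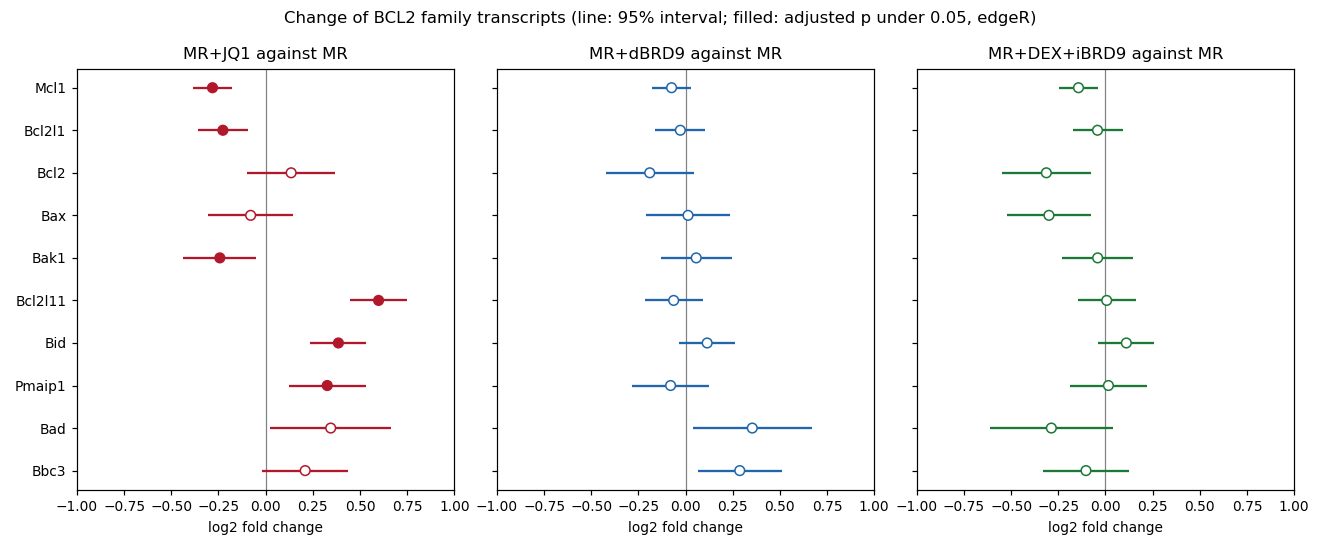
Log2 fold change (horizontal) of each member in MR+JQ1, MR+dBRD9 and MR+DEX+iBRD9 cells, each against MR, with 95% intervals as lines; filled points have an edgeR adjusted p under 0.05. Filled points appear in the MR+JQ1 panel only, from -0.28 for Mcl1 to 0.60 for Bcl2l11.

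Ratios of BH3-only to survival transcripts were higher in MR+JQ1 libraries than in the others. The FPKM of Bcl2l11 per 100 of Mcl1 was 6.96, 6.23 and 5.73 in MR+JQ1 libraries, 3.45, 3.46 and 3.44 in MR+dBRD9 libraries, 3.70, 3.65 and 4.05 in MR+DEX+iBRD9 libraries, and 3.53, 3.25 and 3.504 in MR libraries. A ratio within a library does not depend on how libraries are scaled. The MR+JQ1 libraries stood above all others, which follows from the higher Bcl2l11 and lower Mcl1 given above and adds no further support. The 5 BH3-only genes summed to 26.3 ± 1.10 per 100 of the 3 survival genes in MR+JQ1 cells, 18.9 ± 0.81 in MR+dBRD9 cells, 18.3 ± 1.06 in MR+DEX+iBRD9 cells and 16.6 ± 0.39 in MR cells (SD, n = 3). This sum was also above MR, at 16.4 to 17.1, in all MR+dBRD9 libraries (18.3 to 19.8) and all MR+DEX+iBRD9 libraries (17.2 to 19.3). Among single genes, 25% and 25.1% did not overlap MR in these 2 comparisons, and 0 members were called in either. The sum includes Bid and Bad, whose reads may be shared with genes on the opposite strand. Mcl1 kept its place over the 2 other survival genes, at 888 ± 73.7 per 100 of Bcl2 and Bcl2l1 in MR+JQ1 cells and 942 ± 15.9 in MR cells. These ratios join genes whose changes were tested above and were not tested themselves, and they compare transcripts, not proteins.

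**Figure D4:**
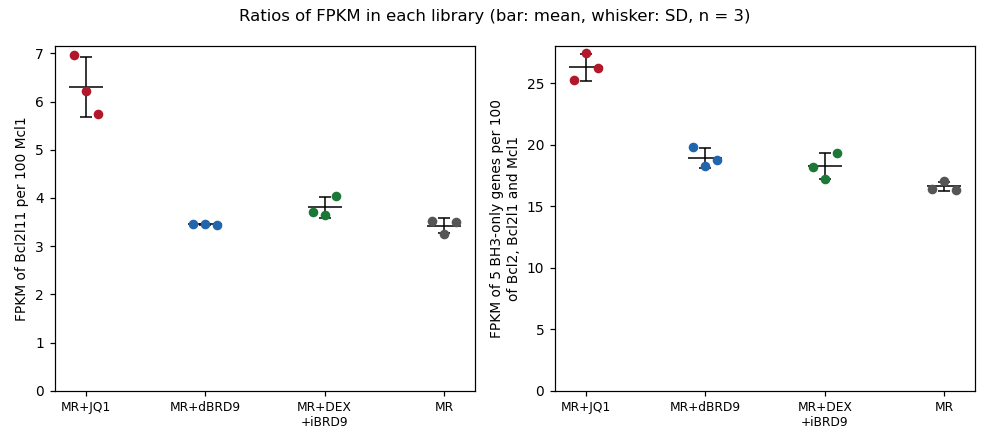
FPKM of Bcl2l11 per 100 of Mcl1 (left) and of the 5 BH3-only genes per 100 of Bcl2, Bcl2l1 and Mcl1 (right), 1 point per library, with mean and SD over 3 libraries and axes from 0. The MR+JQ1 libraries lie at 5.73 to 6.96 and at 25.3 to 27.5, above the MR libraries at 3.25 to 3.53 and at 16.4 to 17.1. On the right, the MR+dBRD9 and MR+DEX+iBRD9 libraries also lie above those of MR.

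JQ1 against dBRD9 shares no MR library and is not crossed by the albumin division. Of the 10 members, 4 were called higher and 3 lower, where 63.2% of all genes were called, 30.4% higher and 32.8% lower, and 5 did not overlap, against 63.7% of all genes. The median of the members was -0.04, against -0.02 over all genes. Bcl2l11 was higher in MR+JQ1 than in MR+dBRD9 cells, with 129.7, 109 and 107 CPM in MR+JQ1 against 68.2, 74.3 and 75.7 CPM in MR+dBRD9 libraries (0.66 ± 0.074, edgeR adjusted p = 7.6e-09). Pmaip1 was higher as well, with 29.0, 27.5 and 25.3 CPM in MR+JQ1 against 20.9, 19.1 and 21.8 CPM in MR+dBRD9 libraries (0.41 ± 0.10, edgeR adjusted p = 8.5e-04). Bid was higher by 0.27 ± 0.072 and Bcl2 by 0.33 ± 0.11, both without overlap (edgeR adjusted p = 0.0017 and 0.015). Mcl1 fell by 0.21 on the log2 scale, with 793, 745 and 792 CPM in MR+JQ1 against 840.2, 913 and 937 CPM in MR+dBRD9 libraries (edgeR adjusted p = 8.9e-04). Bcl2l1 (-0.20 ± 0.065) and Bak1 (-0.30 ± 0.094) were called lower with overlapping libraries, and both calls were lost without MR+dBRD9 library 3 (edgeR adjusted p = 0.091 and 0.14). The Bcl2 call was lost without MR+JQ1 library 1 or MR+dBRD9 library 2 (edgeR adjusted p = 0.090 and 0.053). Scaled by total counts only, Bcl2, Bid and Pmaip1 were no longer called (0.14, 0.08 and 0.22), and Bax (-0.28) and Bbc3 (-0.27) were called lower. Bad was not called under any alternative (-0.01 ± 0.15, 95% interval -0.32 to 0.31).

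The BRD9 degrader called 0 members against MR at 3 libraries a group, where 1.64% of all genes were called. By edgeR, 2 of the 10 had an unadjusted p under 0.05, against 16.6% of all genes, and DESeq2 called 0. They were Bbc3, with 20.7, 18.3 and 21.3 CPM in MR+dBRD9 libraries, against 15.7, 17.4 and 16.3 CPM in MR libraries (0.29 ± 0.11, edgeR adjusted p = 0.17), and Bad, with 22.3, 19.4 and 21.7 CPM in MR+dBRD9 libraries, against 13.3, 19.6 and 16.6 CPM in MR libraries (0.35 ± 0.15, edgeR adjusted p = 0.24). Bbc3 and Bid were the 2 members whose MR+dBRD9 libraries were all above those of MR, where 25% of all genes did not overlap. Bcl2l11 had 68.2, 74.3 and 75.7 CPM in MR+dBRD9 libraries, against 77.2, 72.0 and 78.9 CPM in MR libraries, with an interval of -0.22 to 0.09 on the log2 scale. The interval of Mcl1 was -0.18 to 0.03 and that of Bcl2l1 -0.16 to 0.10, so changes as large as those estimated with JQ1 lay outside the intervals of these 3 genes. The median of the members was -0.01, against 0.01 over all genes.

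DEX with iBRD9 also called 0 members against MR, where 1.95% of all genes were called, and DESeq2 called 0. Unadjusted, 3 members had p under 0.05 by edgeR, where 15.6% of all genes did, and all 3 were lower without overlap. Mcl1 had 838, 883 and 844 CPM in MR+DEX+iBRD9 libraries, against 932, 942 and 958 CPM in MR libraries (-0.14 ± 0.051, edgeR adjusted p = 0.15). It was called in fits of the 6 libraries compared or of the 9 libraries without JQ1 (edgeR adjusted p = 0.014 and 0.034). Bcl2 had 17.9, 19.2 and 17.8 CPM in MR+DEX+iBRD9 libraries, against 20.8, 21.3 and 26.2 CPM in MR libraries (-0.31 ± 0.11, edgeR adjusted p = 0.16). Bax had 35.8, 31.0 and 33.3 CPM in MR+DEX+iBRD9 libraries, against 37.3, 41.2 and 44.8 CPM in MR libraries (-0.30 ± 0.11, edgeR adjusted p = 0.16), and was called in the fit of 6 libraries and without the filter (edgeR adjusted p = 0.016 and 0.044). Together with Bid, which was higher, 4 members did not overlap, beside 25.1% of all genes. Bcl2l11 had 72.9, 75.8 and 80.3 CPM in MR+DEX+iBRD9 libraries, overlapping MR (0.01 ± 0.075). The median of the members was -0.07, against 0.00 over all genes.

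Between the BRD9-directed treatments, Bad was the 1 member called, where 2.36% of all genes were called, 1.72% lower. It fell to 14.4, 12.4 and 13.8 CPM in MR+DEX+iBRD9 libraries, against 22.3, 19.4 and 21.7 CPM in MR+dBRD9 libraries (-0.64 ± 0.16, edgeR adjusted p = 0.029). Leaving out any 1 of 5 of the 6 libraries ended this call (edgeR adjusted p = 0.055 to 0.17), MR+dBRD9 library 2 being the exception, while the log2 fold change was -0.70 to -0.58 over the 6 omissions. Bbc3 had 14.99, 14.9 and 16.1 CPM in MR+DEX+iBRD9 libraries, against 20.7, 18.3 and 21.3 CPM in MR+dBRD9 libraries, and did not overlap, as with Bad, where 25.8% of all genes did not (-0.39 ± 0.11, edgeR adjusted p = 0.052). DESeq2 and the fits of 6 and of 9 libraries called it (adjusted p = 0.025, 0.029 and 0.023). The treatment and the albumin division cannot be told apart here: with the division as a term, the log2 fold change of Bad was -0.63, about as large, with an edgeR adjusted p of 0.97.

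Of 18 other genes of the family, 10 were tested, of which 3 rose and 4 fell in JQ1 against MR, where 30% of all genes rose and 31.6% fell, with a median log2 change of 0.02 against -0.01 over all genes, -0.17 against -0.20 when scaled by total counts only. Bnip3l, a receptor that marks mitochondria for removal, averaged 142 ± 6.39 CPM in MR+JQ1 and 64.4 ± 4.31 CPM in MR cells (log2 fold change 1.14 ± 0.069, edgeR adjusted p = 1.0e-14). Bmf, a BH3-only gene close to Bcl2l11 in function, averaged 9.53 ± 1.01 CPM in MR+JQ1 and 4.60 ± 0.51 CPM in MR cells (1.05 ± 0.18, edgeR adjusted p = 1.5e-05). The survival gene Bcl2l2 (BCL-W) fell by 0.43 and Bcl2l13 by 0.35 on the log2 scale. Bcl2a1a, a survival gene of myeloid cells, had 0 counts in the 3 MR+JQ1 libraries and 53 counts in the 3 MR libraries, at least 17.3-fold lower against a floor of 3 counts over the group, and its relative Bcl2a1d had 20 counts in MR+JQ1 and 115 counts in MR libraries. The Bcl2a1 copies are nearly identical, so their counts may be shared among them and are uncertain. The 8 genes that were not tested, Bok, Bik and Hrk among them, had 0 to 10 counts per library.

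Of the caspases and apoptosome genes, 4 of 14 were called higher and 6 lower with JQ1 against MR, where 30% and 31.6% of all genes were (3 higher and 8 lower when scaled by total counts only). Casp6, a caspase, rose by 0.86 on the log2 scale. Diablo, which relieves caspases of their inhibitors, was higher by 1.00, but not without MR+JQ1 library 1 (0.56, edgeR adjusted p = 0.21). Htra2, a mitochondrial protease, was lower by 0.49. Of 10 caspase inhibitors, 2 rose and 5 fell, beside the same shares of all genes. Cflar, the inhibitor of caspase-8, averaged 153 ± 27.5 CPM in MR+JQ1 and 243 ± 13.2 CPM in MR cells (-0.66 ± 0.087, edgeR adjusted p = 1.5e-06). Birc3, a ubiquitin ligase that blocks cell death, averaged 162 ± 3.04 CPM in MR+JQ1 and 245 ± 11.6 CPM in MR cells (-0.60 ± 0.058, edgeR adjusted p = 4.6e-10). Xaf1, an antagonist of XIAP that interferon induces, fell by 3.48 on the log2 scale, the largest fall among these genes. Its known action is opposite to that of the list it was placed in, and Naip2, which rose by 0.58, is known mainly as an inflammasome sensor.

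Of 14 tested genes of the death receptor pathway, 7 rose and 5 fell, where 30% of all genes rose and 31.6% fell (5 and 6 when scaled by total counts only). Tnfrsf21, a death receptor, averaged 129 ± 10.2 CPM in MR+JQ1 and 45.7 ± 1.66 CPM in MR cells (1.496 ± 0.078), and Ripk1, a kinase of this pathway, averaged 204 ± 10.99 CPM in MR+JQ1 and 125 ± 3.74 CPM in MR cells (0.71 ± 0.059; edgeR adjusted p = 3.5e-16 and 1.7e-11). The ligand Tnfsf10 (TRAIL) had 3 counts over the MR+JQ1 libraries and 539 counts over the MR libraries, or 0.57% of MR with an exact 95% counting interval of 0.12 to 1.67%, and Mlkl, the effector of necroptosis, fell by 2.49 on the log2 scale. Both are also known as interferon-induced genes.

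Of the p53 list, 9 of 23 tested genes rose, 9 fell and 5 were not called with JQ1, where 30% of all genes rose and 31.6% fell. Scaled by total counts only, 5 were higher and 12 lower. Btg2 (1.84 ± 0.15), Xpc (1.55 ± 0.10) and Sesn1 (1.28 ± 0.066) rose, while Plk2 (-1.66 ± 0.071), Phlda3 (-0.82 ± 0.10) and Mdm2, the ligase that degrades p53 (-0.82 ± 0.064), fell, each with an edgeR adjusted p of 3.75e-08 or less. Trp53 averaged 109.9 ± 3.83 CPM in MR+JQ1 and 129 ± 6.59 CPM in MR cells. Enzymes known to set the turnover of MCL1, BIM and NOXA included 6 higher and 2 lower of 16, beside the same shares of all genes. Fbxw7, which targets MCL1 for degradation, averaged 33.2 ± 1.74 CPM in MR+JQ1 and 19.2 ± 1.71 CPM in MR cells (0.79 ± 0.11, edgeR adjusted p = 4.7e-07), and Mapk8, a kinase that phosphorylates BIM, rose by 0.44, while Marchf5, another ligase of this kind, was lower by 0.31. Scaled by total counts only, 4 were higher and 5 lower.

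Of the FOXO factors and their targets, 9 of 11 were called higher with JQ1, where 30% of all genes were, with a median log2 change of 1.155 against -0.01 over all genes. This list was chosen with earlier results of these data known, so its count is a description only. FOXO3 is known to bind the Bcl2l11 and Bbc3 genes in several cell types, and a part of it in the Bcl2l11 result was not tested. Foxo3 averaged 139 ± 12.7 CPM in MR+JQ1 and 69.9 ± 0.86 CPM in MR cells (0.99 ± 0.069, edgeR adjusted p = 3.1e-13), and Foxo1 averaged 18.4 ± 2.69 CPM in MR+JQ1 and 7.99 ± 0.64 CPM in MR cells (1.199 ± 0.16, edgeR adjusted p = 1.1e-07). Among known targets, Sesn3 (2.11 ± 0.12), Irs2 (1.97 ± 0.14), Klf2 (1.88 ± 0.11) and Pink1 (1.31 ± 0.094) rose, each with an edgeR adjusted p of 7.5e-12 or less. Bcl6 did not pass (-0.06 ± 0.078), and the call of Gadd45b (-0.25, edgeR adjusted p = 0.0497) was lost under most alternatives. Scaled by total counts only, 8 of the 11 were called higher, with a median of 0.97. Of a list of 14 genes of mitochondrial membranes and of proteins that act with them, 4 rose and 5 fell. Over all genes, 30% rose and 31.6% fell. Vdac2, a channel that anchors BAK, averaged 321 ± 17.99 CPM in MR+JQ1 and 407 ± 22.7 CPM in MR cells (-0.34 ± 0.055, edgeR adjusted p = 4.7e-06), and Mfn2, a fusion protein, fell by 0.88 on the log2 scale, while Bcap31 rose by 0.65.

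**Figure D5:**
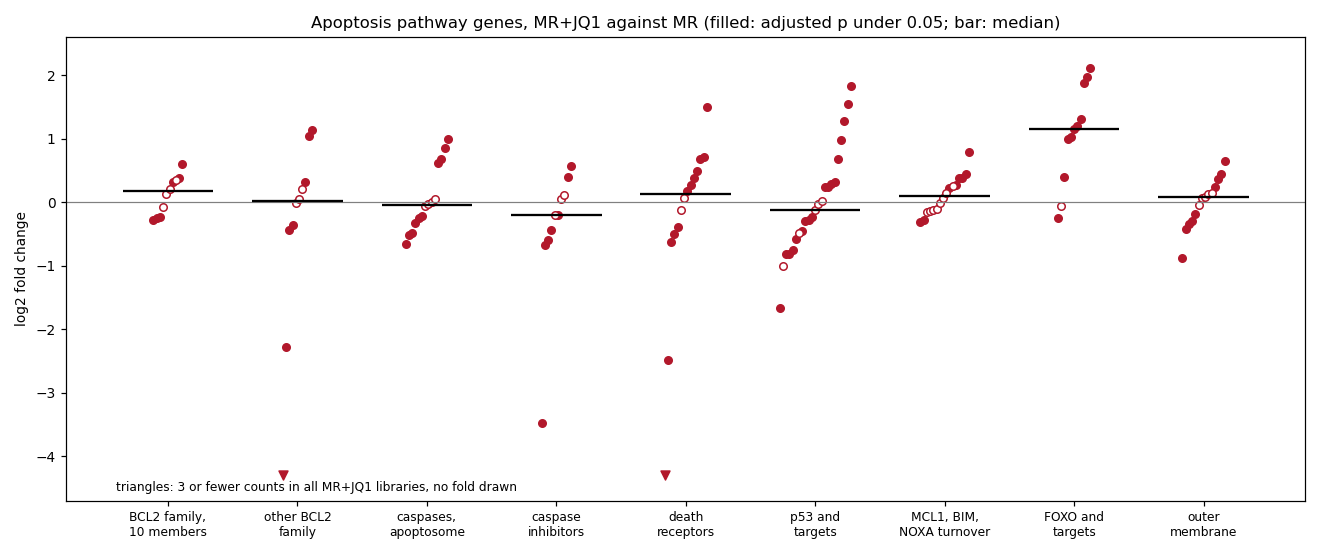
Log2 fold change (vertical) of the 10 members and of 8 lists of related genes in MR+JQ1 against MR cells, 1 point per gene; filled points have an edgeR adjusted p under 0.05, bars are medians, and triangles at the lower edge are Bcl2a1a and Tnfsf10, which had 3 counts or fewer in MR+JQ1 and are drawn without a fold. The bar of the FOXO list lies at 1.155, those of the other columns between -0.20 and 0.17.

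Across the 8 lists, 44 of 112 tested genes rose and 37 fell with JQ1 against MR, where 61.6% of all genes were called. With dBRD9 1 rose and 0 fell, where 1.64% of all genes were called, and with DEX and iBRD9 3 rose and 1 fell, where 1.95% were. Between MR+JQ1 and MR+dBRD9 cells, 47 were higher and 37 lower, where 30.4% of all genes were higher and 32.8% lower. The 1 gene called with dBRD9 was Phlda3 (0.40 ± 0.093, edgeR adjusted p = 0.029). With DEX and iBRD9, Gtse1 (0.39), Foxo1 (0.61) and Dnm1l (0.25) rose and Tspo fell (-0.39). Between MR+DEX+iBRD9 and MR+dBRD9 cells, 1 was higher and 4 were lower, where 2.36% of all genes were called, 1.72% lower. In this comparison the treatment and the albumin division cannot be told apart. Each of these calls was lost on leaving out some single libraries (edgeR adjusted p up to 0.29), that of Gadd45b on each of 6 omissions. With the division as a term, the log2 fold changes were -0.22 for Htra2, -0.44 for Phlda3, -0.38 for Gadd45b, 0.15 for Dnm1l and -0.11 for Tspo. The 5 calls against MR were lost when single libraries were left out, with edgeR adjusted p up to 0.24, and with the albumin division as a term, where the log2 fold changes were 0.41 for Phlda3, 0.37 for Gtse1, 0.56 for Foxo1, 0.22 for Dnm1l and -0.32 for Tspo. The 3 comparisons share the MR libraries.

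The genes whose pattern over the 3 log2 fold changes against MR was nearest to a member, among 9330 genes with at least 5 CPM, were Oxr1 and Ginm1 for Bcl2l11 (root-mean-square difference 0.012 and 0.019 on the log2 scale), Rnf121 and Tigar for Mcl1 (0.0099 and 0.018), Oser1 and Dhdds for Bid, and Uggt1 and Cnot2 for Pmaip1. For Bcl2l1 they were Cd99l2 and Nbeal2, and for Bak1 Farsa and Rps6ka2. Oxr1 had log2 fold changes of 0.59 with JQ1, -0.04 with dBRD9 and 0.01 with DEX and iBRD9, against 0.60, -0.06 and 0.01 for Bcl2l11. Among so many genes some gene is always near. These differences are smaller than the SE of the members' fold changes, so which gene is nearest is uncertain. Shared regulation was not tested.

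Markers of other cells moved with JQ1 beside these results. The 12 neutrophil markers summed to 37.7 to 52.6 CPM in MR+JQ1 libraries and 218 to 235 CPM in MR libraries. Camp and Retnlg had 0 counts in the MR+JQ1 libraries only, while Ly6g had 0 counts in the MR+JQ1, MR+dBRD9 and MR+DEX+iBRD9 libraries. Erythroid and megakaryocyte markers summed to 99.8 to 122 CPM in MR+JQ1 and 206 to 213 CPM in MR libraries, and stromal markers to 17.8 to 18.9 CPM in MR+JQ1 and 52.5 to 59.3 CPM in MR libraries, with Lum at 0 in both. B cell markers reached at most 0.74 CPM in MR+JQ1 and 5.84 CPM in MR libraries, with Igll1 at 0 in both, T and NK markers 0.70 CPM in MR+JQ1 and 3.29 CPM in MR libraries with Cd3d and Gzma at 0, and mast cell markers 0.68 CPM in MR+JQ1 and 2.14 CPM in MR libraries with Mcpt4 at 0. In bulk RNA, fewer cells of a type and less RNA per cell cannot be told apart, and the part of these cells in the BCL2 family results was not tested. The 25 liver genes summed to 184 to 242 CPM in MR+JQ1 libraries, 151 to 165 CPM in MR+dBRD9 libraries, 44.4 to 52.8 CPM in MR+DEX+iBRD9 libraries and 46.8 to 167 CPM in MR libraries.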

How the data were processed

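RNA of 12 libraries was analysed, 3 in each of 4 groups taken from the treatment labels. The deposited counts are whole reads per gene, which the authors made with cutadapt, HISAT2 and HTSeq on GRCm39, per the submitters' processing notes. The deposited FPKM were computed by the authors from the same counts, and for each member the ratio of CPM to FPKM gave 1 gene length in all libraries. The annotation release and the strand setting of the counting are not given in the sources used here. Of 21899 gene IDs, 21700 matched GENCODE annotation of GRCm39 and 199 did not, and 0 columns lacked a sample.

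Low counts were filtered with filterByExpr (at least 10 per gene, 15 in total), and 11670 genes passed. The 12 libraries were scaled by TMM and compared in 1 edgeR 4.0.16 quasi-likelihood fit with robust dispersion (R 4.3.3, limma 3.58.1, prior count 0.125, 8 residual degrees of freedom, biological coefficient of variation 7.29%), with Benjamini-Hochberg adjustment over all genes tested and a threshold of 0.05. The libraries held 14875951 to 18067758 counts, and replicates differed beyond counting noise (chi-square per degree of freedom 3.55 to 15.7). Pairs of MR+JQ1 libraries were at 7.03 to 15.7, highest with library 1. Pairs were at 4.74 to 8.36 in MR+dBRD9, 3.55 to 5.40 in MR+DEX+iBRD9 and 3.82 to 5.13 in MR. An exact permutation test of 3 libraries against 3 cannot go below 0.1 and was not used. The fit was tested on simulated data with known changes, set in MR+dBRD9 against MR only, in few genes and none of low counts. It called 15 of 50 genes changed 1.2-fold, 42 of 50 changed 1.5-fold, and 6 of 11338 unchanged genes. Most changes of 1.2-fold would therefore be missed where few genes change. JQ1 was not simulated. There 61.6% of genes were called against MR, and a change as small as that of Bcl2l1, at 85.5% of MR, was called.

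Alternatives were DESeq2 size factors, total counts only, no filter, a stricter filter (over 1 CPM in 3 libraries, and 20 counts on average), the DESeq2 1.42.0 Wald test, fits of 6 or of 9 libraries, a term for libraries with at least 100 albumin counts, the unadjusted p with a fold of 1.2 of the study's methods, and leaving out each library in turn. Named were all members, up to 3 called genes per direction and list with the largest change in JQ1 against MR and up to 2 in other comparisons, and the 2 nearest genes of each member called against MR. Foxo3, Foxo1 with JQ1, Pink1, Trp53 and Bcl6 were named for their roles outside this rule, after their values were seen. The members and lists were chosen with earlier results of these data known. Figures were drawn in Python 3.11.15 with matplotlib 3.10.9. Some genes are not reported here.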

Additional observations from a re-analysis of the deposited data

How the results depend on the processing

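Over the 10 members and 5 comparisons, 684 of 730 alternative values kept the side of the threshold, 24 passed it and 22 lost it, and 0 called values reversed. Of the 684, 31 changed sign, all of members not called. Bcl2l11, Bid and Mcl1 in JQ1 against MR, and Bcl2l11 and Mcl1 in JQ1 against dBRD9, were called by each tool, scaling, filter, fit and omitted library tried, except that Mcl1 against dBRD9 was under the fold of 1.2. The counts over all genes moved more, and the cause was not tested. Scaled by total counts only, 2216 genes were higher and 5170 lower in JQ1 against MR, beside 3503 and 3687, and 2175 and 5261 in JQ1 against dBRD9, beside 3549 and 3828. In dBRD9 against MR, 60 genes were higher and 131 lower. These were 174 and 361 without the filter, 123 and 284 with DESeq2, 276 and 500 in 6 libraries, 346 and 578 in 9 libraries, 1 and 0 with the albumin division as a term, and 380 and 417 by unadjusted p and a fold of 1.2. Leaving out single libraries gave 6 to 64 higher and 9 to 81 lower. In DEX and iBRD9 against MR, 69 were higher and 159 lower. In the same order these were 154 and 419, 134 and 239, 402 and 652, 251 and 413, 20 and 81, and 278 and 521, with 10 to 59 and 43 to 111 on leaving out single libraries. In DEX and iBRD9 against dBRD9, 74 were higher and 201 lower. Here they were 247 and 496, 201 and 298, 336 and 513, 425 and 535, 0 and 0, and 274 and 631, with 2 to 90 and 6 to 262. No paired analysis was possible because the labels give the groups no shared replicate numbers. The fit of 9 libraries was not run where JQ1 was compared. Bad and Bbc3 had the fewest counts of the members over the 12 libraries.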
